A study of Mus musculus with 38 samples.

Results

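The regions described here are stretches of chromatin that carried H3K4me1 in mouse epidermal stem cells (EpdSCs) before induction of SOX9, carried it again in every later list, and never overlapped a peak of H3K27ac. They were selected on measured values: a domain of the D0 list of H3K4me1 was kept when at least 1 bp of it lay under a domain in the W1, W2, W6 and W12 lists and none of it lay under a peak of the 5 H3K27ac lists. Of 87287 D0 domains, 17484 met both conditions (20%; these are called members below). The domains most like them were constant but acetylated, 20038 in 1 to 4 lists and 9029 in all 5. Because constancy, H3K4me1 strength and width, and the lack of H3K27ac belong to the rule or to the same lists, their values are given as a description only.

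The study induced SOX9 in EpdSCs and followed histone marks by MINT-ChIP, in which chromatin is barcoded and samples are pooled before antibodies are added. The 12 skin samples of H3K4me1 and the 12 of H3K27ac came from back skin of male mice of the genotype K14rtTA; TRE-myc-Sox9, in which the Krt14 promoter, active in basal epithelium, drives the doxycycline (DOX) dependent activator, so that DOX switches on MYC-tagged SOX9 in these cells. D0 cells were not induced, W1, W2 and W6 cells had 1, 2 and 6 weeks of DOX from postnatal day 21, and W12 cells had 12 weeks of DOX in skin of newborns grafted onto female Nude hosts. All were sorted as CD31, CD45, CD117 and CD140a negative, CD49f high, CD34 negative and Ly6A high. Samples labelled W12 were pools that also carried W2 replicate 1, and which libraries entered the W2 and W12 lists is unclear. In addition, 2 H3K4me1 samples came from cultured keratinocytes of back skin with WT SOX9, without and with DOX, or with DOX and SOX9 lacking its DNA-binding HMG box (ΔHMG) or its transactivation domain (ΔTA). High and low micrococcal nuclease digests of all replicates were merged by the authors into 1 list per mark and condition, so no value below has a spread over replicates, and read depth behind the H3K4me1 lists is unknown. Each list pools many cells, so a mark in few cells and a weak mark in all cells cannot be told apart.

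H3K4me1 is placed by the MLL3 and MLL4 methyltransferases and marks enhancers whether or not they are in use. H3K27ac is placed by p300 and CBP and separates enhancers and promoters in use from those that are only primed. Primed elements are known from genes of lineages a cell does not follow, where Polycomb can hold a CpG-rich promoter silent while its flanks keep H3K4me1.

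The kinds of sequence under members are shown first. The first set holds promoters of list genes whose start sites lay inside a member, from 250 bases before to 50 bases after the start as given by RefSeq for GRCm38.p6, with each CG dinucleotide in capitals. They show what a CpG-rich start in a member looks like and lie above the median of 12 CG for starts in members. Starts with few CG lay in members too, such as those of *Mesp1* (4 CG) and *Pdgfra* (5 CG). *Olig2* (chr16:91225300-91225599, plus strand, 25 CG) encodes a neural regulator and *Hand2* (chr8:57320733-57321032, plus strand, 17 CG) a heart and limb regulator. *Hhip* (chr8:80057959-80058258, minus strand, 30 CG) encodes a hedgehog antagonist and *Wif1* (chr10:121033754-121034053, plus strand, 25 CG) a WNT antagonist and marker of hair follicle stem cells (HFSCs).
Olig2: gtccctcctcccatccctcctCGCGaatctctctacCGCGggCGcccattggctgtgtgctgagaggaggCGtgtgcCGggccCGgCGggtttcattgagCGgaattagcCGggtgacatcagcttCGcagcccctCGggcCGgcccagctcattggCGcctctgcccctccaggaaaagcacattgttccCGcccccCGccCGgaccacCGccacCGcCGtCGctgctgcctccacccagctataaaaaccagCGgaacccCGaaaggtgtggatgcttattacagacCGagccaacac
Hand2: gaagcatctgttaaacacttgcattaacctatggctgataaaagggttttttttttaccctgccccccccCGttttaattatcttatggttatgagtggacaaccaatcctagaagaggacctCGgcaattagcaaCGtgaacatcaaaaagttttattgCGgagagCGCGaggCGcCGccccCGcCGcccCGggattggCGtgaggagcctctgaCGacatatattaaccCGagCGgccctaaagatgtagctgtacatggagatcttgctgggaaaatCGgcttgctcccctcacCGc
Hhip: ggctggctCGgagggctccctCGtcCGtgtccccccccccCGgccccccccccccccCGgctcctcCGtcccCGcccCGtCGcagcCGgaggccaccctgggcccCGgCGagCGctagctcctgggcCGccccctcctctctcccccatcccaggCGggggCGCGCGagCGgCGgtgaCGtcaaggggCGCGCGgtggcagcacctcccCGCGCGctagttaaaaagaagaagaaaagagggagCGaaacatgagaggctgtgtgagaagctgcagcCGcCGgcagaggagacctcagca
Wif1: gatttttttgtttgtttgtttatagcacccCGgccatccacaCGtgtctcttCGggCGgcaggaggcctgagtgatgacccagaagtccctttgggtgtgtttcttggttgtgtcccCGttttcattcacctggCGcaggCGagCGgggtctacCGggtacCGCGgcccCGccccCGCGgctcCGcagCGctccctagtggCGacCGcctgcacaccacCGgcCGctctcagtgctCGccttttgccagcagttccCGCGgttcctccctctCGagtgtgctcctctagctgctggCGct

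The second set holds the central 300 bases of 3 distal members, read from the plus strand of GRCm38.p6. Capitals mark only the motifs named for each window, and matches to other motifs were left in small letters. The member in an intron of *Tcf7l2* (window chr19:55816551-55816850) was among those that widened most by W2, and its capitals mark TGTGGT, the core of the RUNX motif, and GGAATG, that of TEAD factors, which also occurs there on the other strand as CATTCC. The member in an intron of *Mtmr3* (window chr11:4578651-4578950) narrowed most, and its capitals mark an AP1 match (TGANTCA) and a GATA match, AGATAA, read on the other strand as TTATCT. The member near *Kl* (window chr5:150996551-150996850) had one of the highest scores in culture, and its capitals mark an AP1 match. The TEAD match CATTCC also occurs, unmarked, in the *Mtmr3* and *Kl* windows. A match of letters is not evidence of binding.
Tcf7l2: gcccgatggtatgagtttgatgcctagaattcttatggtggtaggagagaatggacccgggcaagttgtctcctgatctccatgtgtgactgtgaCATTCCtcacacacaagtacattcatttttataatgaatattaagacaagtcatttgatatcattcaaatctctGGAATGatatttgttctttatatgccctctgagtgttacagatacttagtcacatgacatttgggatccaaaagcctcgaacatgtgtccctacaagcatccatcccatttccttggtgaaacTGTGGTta
Mtmr3: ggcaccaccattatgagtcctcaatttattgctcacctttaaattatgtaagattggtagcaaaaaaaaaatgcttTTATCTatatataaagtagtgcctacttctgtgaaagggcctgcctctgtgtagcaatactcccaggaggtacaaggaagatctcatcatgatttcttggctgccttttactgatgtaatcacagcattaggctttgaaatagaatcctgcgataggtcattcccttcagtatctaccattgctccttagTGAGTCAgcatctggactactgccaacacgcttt
Kl: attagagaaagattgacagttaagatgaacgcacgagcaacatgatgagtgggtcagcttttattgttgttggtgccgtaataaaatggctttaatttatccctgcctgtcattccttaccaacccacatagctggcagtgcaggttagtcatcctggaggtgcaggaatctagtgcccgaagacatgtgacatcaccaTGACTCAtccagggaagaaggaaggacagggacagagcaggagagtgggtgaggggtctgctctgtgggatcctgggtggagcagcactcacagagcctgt

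Members were the narrow and weaker part of constant H3K4me1. They covered 52.6 Mb with a median width of 2600 bp (quartiles 1800 and 3800 bp), against 4000 bp for constant domains acetylated in 1 to 4 lists and 6600 bp for those acetylated in all 5. The median −log10 p of members, as the authors' caller gave it, was 64.4 at D0 and 27.9, 26.2, 41.0 and 25.4 in the W1, W2, W6 and W12 lists. For domains acetylated in 1 to 4 lists the D0 median was 141, and for D0 domains that were neither constant nor ever acetylated it was 19.5. Domains did not keep exact borders, since 57.5% of member bases lay in all 5 lists. Members were between 17.8% and 21.4% of the D0 domains of each autosome and 15.8% (14.3 to 17.5%, exact 95% Clopper-Pearson interval) on the X chromosome. Such intervals cover counting error only, and neighbouring domains are not independent.

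The members just inside the rule were few. The nearest H3K27ac peak of any list lay within 200 bp of 202 members and within 1000 bp of 650 (3.72%), while for 8915 members (51.0%) it lay over 10000 bp away (median 10307 bp). In some later list 71 members were covered by at most 200 bp of H3K4me1. Just outside, 311 constant domains had no more than 200 bp of H3K27ac summed over all lists, and 7083 were acetylated in exactly 1 list. The peaks that kept these 7083 out were weak for their lists, with median scores of 36, 23, 40, 49 and 28 in the order of time against list medians of 58, 47, 64, 71 and 39. On the side of constancy, 8871 never acetylated D0 domains were missing from 1 later list only, most often from W2 (3285) and W12 (2613).

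The sorted cells were checked by acetylation near start sites: all 6 epidermal markers (*Krt5*, *Krt14*, *Trp63*, *Itga6*, *Itgb4*, *Col17a1*) had an H3K27ac peak within 1 kb of a start in every list, and none of 3 immune and none of 2 fibroblast markers had one in any list. *Pecam1*, which encodes the CD31 used to exclude endothelial cells, was acetylated at W6 and W12, and the melanocyte genes *Pmel* at D0, W1 and W2, *Dct* at W1 and *Mitf* at W6 and W12, so that each list had at least 1 acetylated melanocyte gene.

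H3K4me1 over members was most extended at W2. The summed width of the H3K4me1 domains over a member had a median of 2800 bp at W2 and of 2600 bp in the 4 other lists. Below, widths over a member are given in the order D0, W1, W2, W6 and W12. Wider than at D0 were 52.1% of members at W2, beside 50.8% of all constant domains. The W1, W6 and W12 lists gave 41.5, 42.5 and 45.6% of members, beside 42.4, 43.8 and 43.1% of all constant domains. Few members kept their width, since at W2 40.0% were narrower than at D0 and 7.95% were equal. The median ratio of W2 to D0 width ranged from 2.67 for members of 200 to 1000 bp to 0.747 for those over 8000 bp. At W2 and like width, members had widened less often than domains acetylated in 1 to 4 lists in each width class. From 2200 to 4000 bp the shares were 45.5% for members and 57.1% and 58.1% for domains acetylated in 1 to 4 and in all 5 lists. From 4200 to 8000 bp they were 29.9, 40.8 and 44.7%. Members were also below domains acetylated in all 5 lists, except from 200 to 1000 bp, with 88.0% of members against 84.1% of 69 domains. A minority spread far: 994 members reached 3 or more times their D0 width at W1 (5.69%, against 5.32% of all constant domains), 1988 at W2 (11.4% against 9.79%), 1469 at W6 (8.4% against 7.88%) and 1299 at W12 (7.43% against 6.18%). At W2, 222 members reached 10 or more times their D0 width and 188 lay under at least 20000 bp of H3K4me1. Under that much lay 63, 110 and 46 members in the W1, W6 and W12 lists.

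Members close to acetylated chromatin spread more often, although most members that spread lay farther away. Of 2151 members with an H3K27ac peak within 2500 bp, 28.1% (26.2 to 30%) reached 3 or more times their D0 width at W2, compared with 12% of the next 6418 members, up to 10000 bp away, 7.08% of the next 7217, up to 50000 bp away, and 6.01% of the 1698 beyond. The same order from near to far was present at W1 (19, 5.41, 2.67 and 2.65%), W6 (26.1, 8.27, 4.28 and 4%) and W12 (20.6, 6.82, 4.71 and 4.53%), although the last 2 classes differed little at any time. The classes were drawn after values had been seen. Of the 1988 members that spread at W2, 604 lay within 2500 bp of a peak, 771 in the second class, 511 in the third and 102 beyond. Whether these members were joined to broad domains around the peaks was not tested. Members at start sites spread less often: 5.58% of 2852 members with a start site inside reached 3 times their D0 width at W2, against 12% of 12940 distal members.

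**Figure D1:**
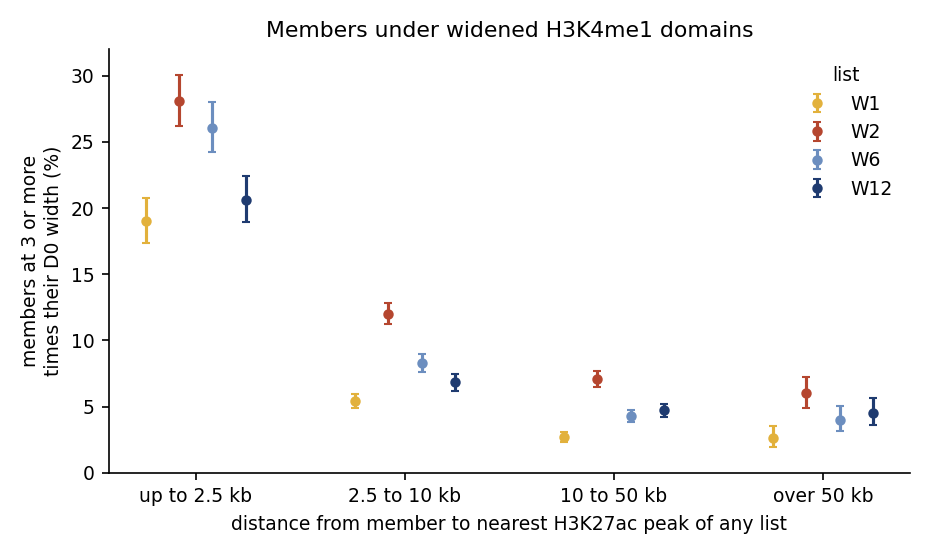
Share of members (%) whose summed H3K4me1 width was 3 or more times the D0 width, by distance to the nearest H3K27ac peak of any list, for the W1, W2, W6 and W12 lists, with exact 95% intervals for counting error. In each list the share is highest within 2500 bp, reaching 28.1% at W2.

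The members with the largest ratio of W2 to D0 width went different ways after W2. An intronic member whose nearest protein-coding start was that of *Mrpl37* (chr4:107007201-107011000) measured 3800, 50800, 99400, 3800 and 10000 bp. A member nearest to *Samd5* (chr10:9636401-9638400) followed the same course, from 2000 bp to 15800, 50000, 2000 and 5200 bp. The intronic *Tcf7l2* member whose sequence is shown above (chr19:55815601-55818000) was wide at W2 alone, with 2400, 3000, 52000, 2800 and 3400 bp. Members nearest to *Ppif* (chr14:25619201-25622000) and *Cebpb* (chr2:167734601-167736600) instead stayed wide, the former with 2800, 21200, 60600, 22600 and 22800 bp and the latter with 2000, 29200, 42000, 31200 and 33000 bp. Of these 5 members, 3 returned to at most 10000 bp by W12 and the other two did not.

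The members with the smallest ratio were narrow at W2 and wider at W6 and W12. The *Mtmr3* member shown above (chr11:4576001-4587600) measured 11600, 7800, 800, 2000 and 4200 bp. A member over the start of *Clca1* (chr3:145026801-145034800) measured 8000, 6200, 800, 2400 and 6400 bp, and one nearest to *Efnb2*, though 770042 bp from its start (chr8:7883401-7891200), 7800, 3600, 800, 2800 and 5000 bp. Members near *Atp10a* (chr7:58689601-58699000) and *Myrfl* (chr10:116870601-116878000) ended at 4200 and 4600 bp from 9400 and 7400 bp. All 5 were wider at W12 than at W2. This set and that of the largest ratio were ranked on W2 and D0 width, so extremes at D0 and W2 are set by the choice. Less extreme widths in the other lists are in part expected from this choice. The 5 widest members at D0, named by the nearest protein-coding gene, were those of *Nptn* (20800 bp), *Kdm6a* (20400 bp), *Camkv* (18400 bp), AL607142.1 (18200 bp, with its start 100196 bp away) and *Agap1* (17800 bp). At W2 they measured 15200, 13600, 8800, 19800 and 13400 bp, and 4 of the 5 were narrower than at D0.

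**Figure D2:**
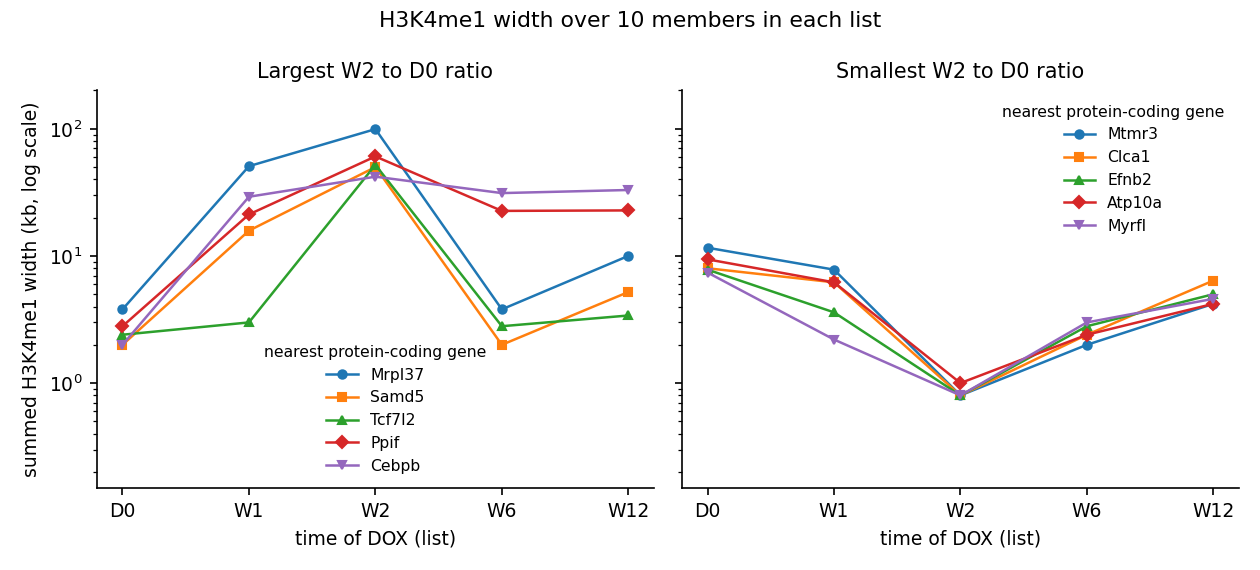
Summed H3K4me1 width (kb, log scale) in the D0, W1, W2, W6 and W12 lists over the 5 members with the largest and the 5 with the smallest ratio of W2 to D0 width, each line 1 member named by its nearest protein-coding gene. The members near *Ppif* and *Cebpb* stay above 20 kb after W1, and the 5 members on the right reach 0.8 to 1 kb at W2.

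Members lay mostly away from genes' starts, more often than acetylated domains and less often than other never acetylated domains. Of the 17484 members, 12940 (74.0%, 73.4 to 74.7%) were over 2500 bp from every annotated start site, against 69.8% of all D0 domains, 59.8% of domains acetylated in 1 to 4 lists and 25.9% of those acetylated in all 5. At the width distribution of members the latter shares were 60.7% and 16.3%. Never acetylated domains that were not constant were distal in 85.3% of cases, or 84.7% at the widths of members. By their midpoint 51.5% of members lay in introns, 8.42% in exons and 40.0% between genes, beside 54.8, 7.20 and 38.0% of all D0 domains. A start site lay inside 2852 members (16.3%), near the 17.3% of all D0 domains. The acetylated classes reached 24.0% and 51.5%, and never acetylated domains that were not constant 5.85%. The lack of H3K27ac is part of the rule, so a start inside a member has by construction no overlapping H3K27ac peak.

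Members with a start site inside were more often CpG-rich over the whole domain than acetylated domains, while their promoters held fewer CG than acetylated promoters. A domain was called CpG-rich when its GC content was over 50% and its ratio of observed to expected CpG was over 0.6. Of 2050 members with a protein-coding start inside, 472 (23.0%, 21.2 to 24.9%) were CpG-rich, against 5.83% of domains acetylated in 1 to 4 lists and 1.43% of those acetylated in all 5. The share was 18.6% (16.4 to 20.9%) among never acetylated domains that were not constant. The median widths of these domains were 3000, 4200, 6000 and 1800 bp, and the part of width in the difference was not tested. In windows of fixed length, the 300 bases of RefSeq promoters, the order was another: the median was 12 CG dinucleotides for 2541 starts in members, 23 for 7381 starts with H3K27ac nearby in all 5 lists, 16 for 6358 with it in 1 to 4 lists, 6 for 2419 never acetylated starts in other D0 domains and 3 for 14152 with no D0 domain. Starts in members thus stood between acetylated and unmarked starts. Distal members were seldom CpG-rich (0.564%), though the share was above the 0.0917% and 0.171% of distal acetylated domains, with intervals of 0.442 to 0.709%, 0.0458 to 0.164% and 0.0466 to 0.437%.

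**Figure D3:**
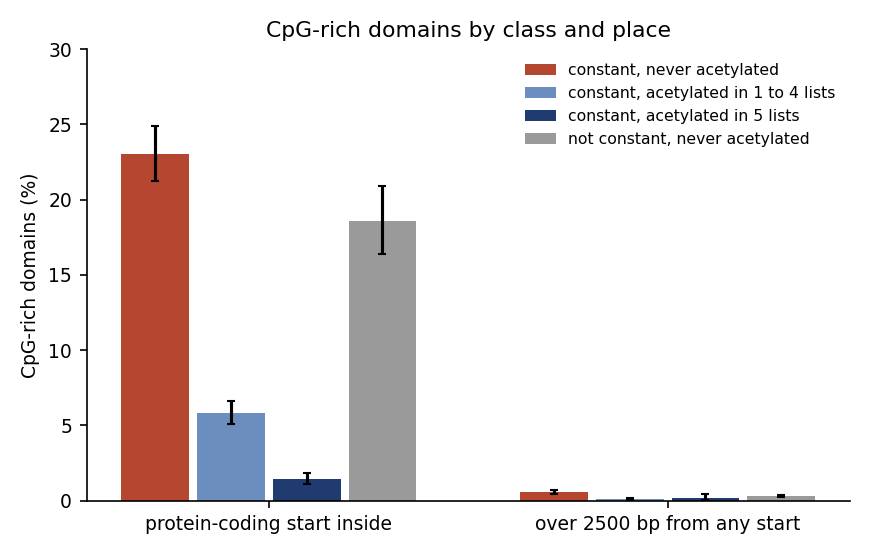
Share of CpG-rich domains (%) among members and the other classes of D0 domains, for domains with a protein-coding start inside and for domains over 2500 bp from any start, with exact 95% intervals for counting error. Members with a start inside have the highest share, 23.0%.

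H3K4me1 at most members was also found in cultured keratinocytes, a readout the rule did not use. Without DOX, 72.6% of members (72.0 to 73.3%) overlapped a culture domain, against 63.1% of all D0 domains, 85.2% of domains acetylated in 1 to 4 lists and 96.0% of those acetylated in all 5. Never acetylated domains that were not constant reached 39.1%. At the widths of members the 3 other classes stood at 81.1, 88.0 and 43.4%, in the same order. When 50% of the domain had to be covered the shares were 28.9% for members and 24.6% and 16.5% for the wider acetylated classes. Within each width class, however, the share of members was below that of domains acetylated in 1 to 4 lists, for example 26.9% against 33.6% from 2200 to 4000 bp. Members with a protein-coding start inside were found in culture in 91.6% of cases and distal members in 69.0%. The other classes had the same order, with 94.8 and 81.4% for domains acetylated in 1 to 4 lists and 97.7 and 96.6% in all 5. For never acetylated domains that were not constant the shares were 66.8 and 37.3%. With DOX the shares of members were 71.9% with WT SOX9, 72.1% with ΔHMG and 72.0% with ΔTA, beside 61.4%, 62.8% and 62.9% of all D0 domains. All 4 culture lists held 10179 members (58.2% against 50% of all D0 domains), and none held 2550 (14.6% against 24.9%).

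**Figure D4:**
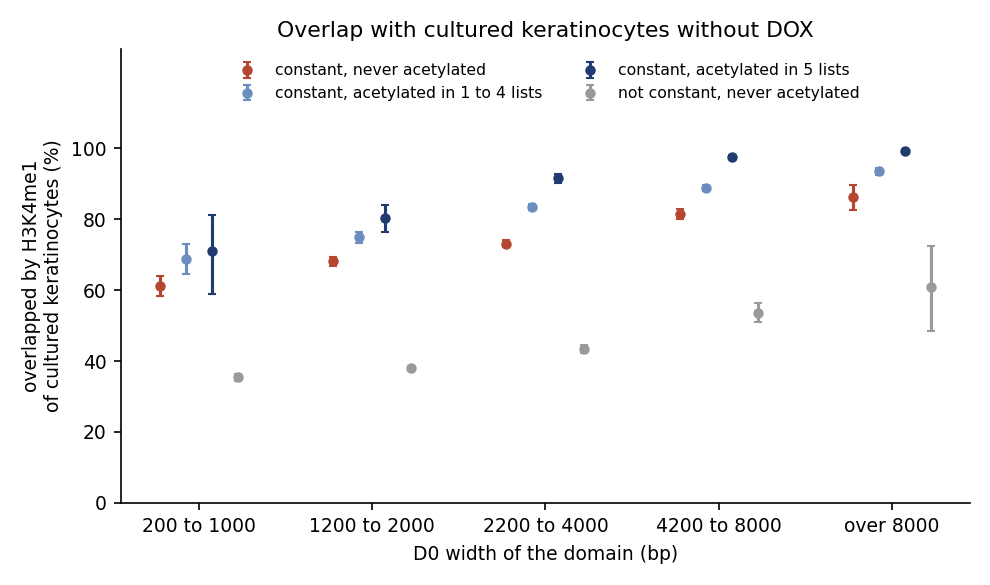
Share of D0 domains (%) that overlap an H3K4me1 domain of cultured keratinocytes without DOX, by D0 width and class, with exact 95% intervals for counting error. The share grows with width in each of the 4 classes drawn, and members lie above never acetylated domains that were not constant.

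With DOX some members gained and some lost their culture domain. Of 12702 members called without DOX, 1494 (11.8%) were missing with WT SOX9, 992 (7.81%) with ΔHMG and 1234 (9.72%) with ΔTA, beside 13%, 8.52% and 10.2% of all D0 domains. Of domains acetylated in 1 to 4 lists 5.78, 4.99 and 5.70% were missing, and of those acetylated in all 5 1.94, 2.96 and 2.68%. Of 4782 members not called without DOX, 28.6% were called with WT SOX9, 18.8% with ΔHMG and 23.4% with ΔTA, beside 17.7, 13.7 and 16.8% of all D0 domains. For domains acetylated in 1 to 4 lists these shares were 40.1, 21.3 and 27.6%, and for those acetylated in all 5 they were 53.2, 26.9 and 40.2%. The 3 lists with DOX are set against the same list without DOX, so these values are not independent, and no replicate check of a difference between the variants exists.

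The culture domains over members had a median score of 51 and a median fold enrichment of 3.9 without DOX. Among the 5 members with the highest scores, the one near *Kl* shown above (chr5:150996201-150997800) scored 375 without DOX, 504 with WT SOX9, 592 with ΔHMG and 547 with ΔTA. The *Clca1* member scored 394, 167, 253 and 379, and the member in an intron of Gm13420 (chr2:29714401-29719200) 396, 310, 344 and 286. The members near *Osbpl1a* (426, 388, 443 and 380) and *Slc9a5* (383, 349, 322 and 347) differed less between lists. Scores depend on the depth of each list, which is unknown, so they are given side by side only.

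Short motifs were counted on both strands of a window of 300 bases per domain. The window was centred on the longest stretch of the domain covered in all 5 H3K4me1 lists. Where no such stretch existed, as in every domain that was not constant, it was centred on the middle of the domain. The mean GC content of the windows was 48.3% for members and 46.9 and 47.0% for the acetylated classes. The motif of p63, the master regulator of EpdSCs, was searched as CATGNNNNNNCATG and was found in 302 members (1.73%, 1.54 to 1.93%), against 1.30% and 1.07% of domains acetylated in 1 to 4 and in all 5 lists, 1.72% of never acetylated domains that were not constant and 1.53% of all D0 domains. At the GC content of members the acetylated classes stood at 1.24 and 1.04%. Among distal domains the share was 2.05% of members (1.81 to 2.31%), beside 1.81% of all distal D0 domains. For distal domains of the acetylated classes it was 1.59% (1.38 to 1.83%) and 1.62% (1.15 to 2.22%), with intervals that overlap that of members. In windows of 40 to 45% GC the share was 2.74% (2.24 to 3.32%) of 3716 members and 1.54% (1.22 to 1.93%) of 4989 domains acetylated in 1 to 4 lists. The other classes of window GC are not given here, so this gap need not hold in them. This motif was singled out after its values had been seen.

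Most other motifs were about as common in members as in all D0 domains. SOX (ACAATG) was in 14.4% of members and 14.5% of all D0 domains, RUNX (TGTGGT) in 20.6% and 20.5%, AP1 (TGANTCA) in 13.3% and 12.9%, TEAD (GGAATG) in 17% and 17%, and TCF/LEF (ATCAAAG) in 4.86% and 4.95%. FOX (TGTTTAC) was in 4.48% and 4.57%, LHX (TAATTA) in 7.41% and 7.90%, CEBP (TTGCNNAA) in 12.9% and 13.3%, and the glucocorticoid receptor motif (ACANNNTGT) in 9.61% and 9.76%. The motif of GATA factors, AGATAA, was in 15.6% of members and 17.7% of all and in 20.2% of never acetylated domains that were not constant, whose windows had a mean GC content of 45.2%. KLF (GGGNGTGG, 12.2% and 10.9%), the E-box (CAGCTG, 17.3% and 15.7%), CTCF (CCANNAGNNGGC, 2.37% and 2.18%) and ETS (CCGGAA, 4.59% and 4.13%) were in larger shares of members, though for CTCF the share of all D0 domains lay within the counting interval of members (2.15 to 2.61%). At the GC content of members the E-box stood at 17% and KLF at 11.8% of domains acetylated in 1 to 4 lists. The GRHL motif (AACCGGTT) was in 40 members (0.229%, 0.163 to 0.311%), against 0.225% and 0.0554% (5 windows) of the acetylated classes. It was in 0.159% of all D0 domains and 0.120% of never acetylated domains that were not constant. Among distal domains the shares were 0.247% of members and 0.267% and 0.128% of the acetylated classes, the last from 3 windows. The SOX inverted pair (ACAATNNNNATTGT) and the full NFI motif (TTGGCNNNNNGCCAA) were in 4 and 15 members (0.0229% and 0.0858%), beside 0.0298% and 0.0458% of all D0 domains. An inverted pair whose first free base is G also counts as a SOX match.

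Members touched many genes. Of 21938 protein-coding genes 8397 (38.3%) had a member over the body or within 10 kb, and 2061 (9.39%) had a start site inside one. The genes with most members were long: Gm20388 had 67, *Fgfr2*, a receptor of fibroblast growth factors, 40, *Auts2* 35, Gm37240 25, *Prkce* 18, *Foxp1* 17, *Gse1* and *Macrod2* 16 each, and *Camta1*, *Lrmda* and *Tenm2* 15 each. The annotation used gives *Fgfr2* the span chr7:130162451-133123350, which with its flanks held 194 D0 domains. The span of Gm20388 (chr8:119910841-124345722) contains all of *Gse1* (chr8:120228456-120581390), so the members of *Gse1* count for both. Counts over such long spans need not belong to the named gene alone. Genes over 100 kb had a member in 70.4% of cases and 7.80 members per Mb of body and flanks, and genes under 10 kb in 23.5% of cases with 12.2 per Mb.

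Genes of lineages other than skin often had a start site inside a member. Over 5 lists of regulators of neural, heart and mesoderm, blood and endothelial, endoderm and muscle fates, 22 of 46 genes (47.8%, 32.9 to 63.1%) had a start site inside a member, against 9.39% of all protein-coding genes. Neural regulators gave 7 of 12, among them *Neurog1*, *Neurog2*, *Nkx2-2*, *Olig1*, *Olig2* and *Sox2*, and heart and mesoderm regulators 4 of 8 (*Gata4*, *Hand1*, *Hand2* and *Mesp1*). Blood and endothelial regulators gave 5 of 10 (*Erg*, *Gata2*, *Ikzf1*, *Prox1*, *Sox18*), endoderm regulators 4 of 10 (among them *Cdx2*, *Foxa2* and *Nkx2-1*) and muscle regulators 2 of 7 (*Mef2c*, *Pax3*). No start of 15 epidermal transcription factors, 12 differentiation genes or 79 ribosomal protein genes lay inside a member. Of these genes only 0, 4 and 3 had no H3K27ac within 1 kb of any start, so the rule largely set this result. A start under an H3K27ac peak cannot qualify, though a gene with another acetylated start can. Among the 10242 genes without H3K27ac within 1 kb of any start, 1848 (18%) had a start inside a member. Of such genes the 5 lists gave, in the order above, 7 of 10, 4 of 8, 5 of 8, 4 of 9 and 2 of 7. Such shares were not particular to other lineages: HFSC markers gave 4 of 6, hedgehog and WNT genes 3 of 5 each and HOX genes 9 of 19. Fibroblast markers gave 3 of 8, immune and endothelial markers 1 of 7, and protocadherin cluster genes 1 of 55. Melanocyte markers gave 0 of 4 and RUNX genes 0 of 1. Olfactory receptor genes, silent in skin, gave 4 of 1093.

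The members at these starts differed in how far they kept their width. The *Olig2* member (chr16:91221401-91230000) measured 8600, 8000, 9400, 4000 and 8800 bp, and the nearest H3K27ac peak was 116827 bp away. The member over *Foxa2*, a regulator of endoderm (chr2:148043601-148049400), measured 5800, 6200, 5800, 5800 and 5600 bp. The member over *Sox2* (chr3:34647601-34651800) measured 4200, 6400, 4000, 3800 and 4000 bp. The *Foxa2* member changed least, the *Olig2* member was narrower at W6 and the *Sox2* member wider at W1. The *Hand2* member (chr8:57319801-57321400) lay under 1600, 5600, 6400, 1200 and 4000 bp. At W2, 2 of the 14 members within 10 kb of heart and mesoderm regulators, 1 of the 16 of blood and endothelial regulators and none of the 19 of neural, the 8 of endoderm or the 10 of muscle regulators reached 3 times their D0 width, beside 11.4% of all members.

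HOX genes, which set position along the body axis, had starts inside members mainly in the groups of high number. Of 39 genes 9 had a start inside a member: *Hoxa10*, *Hoxa13*, *Hoxb1*, *Hoxc9*, *Hoxc10*, *Hoxc11*, *Hoxc13*, *Hoxd3* and *Hoxd11*. Of the 16 genes of paralogue groups 9 to 13, 7 had such a start and 14 lacked H3K27ac near every start in all lists, while of the 23 genes of groups 1 to 8 only 2 had such a start and 5 lacked H3K27ac. All 9 genes with such a start lacked H3K27ac near every start. Among genes that lacked it the counts were thus 7 of 14 and 2 of 5. A start under an H3K27ac peak cannot qualify, so the difference between the groups cannot be told apart from that in H3K27ac. This grouping was made after the values had been seen. The *Hoxd11* member (chr2:74679601-74682600) measured 3000, 3000, 5400, 3000 and 2000 bp.

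At HFSC genes many members spread at W2. The list of HFSC transcription factors had members at 11 of 12 genes, *Sox9* being the exception, and 58 members in all, beside a member at 38.3% of all protein-coding genes and at 70.4% of those over 100 kb. The median body of the 12 genes was 104 kb. Of the 58, 28 (48.3%) reached 3 or more times their D0 width at W2, beside 11.4% of all members, and 5, 8 and 9 did so at W1, W6 and W12. Their median width was 2700 bp at D0, 7700 bp at W2 and 2800, 2800 and 3300 bp in the W1, W6 and W12 lists. The 28 lay under 22 different W2 domains and belonged most often to *Tcf7l1* (7 of its 8 members) and *Tcf7l2* (6 of 7), which encode the TCF3 and TCF4 effectors of WNT signalling, followed by *Foxp1* (3 of 17), *Lhx2*, *Nfix* and *Tbx1* (2 of 2 each), *Nfib* and *Runx1* (2 of 8 each). The median distance of the 58 to the nearest H3K27ac peak was 5764 bp, against 10307 bp for all members, and the part of this in the widening was not tested.

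Of HFSC markers, 9 of 19 members (47.4%) reached 3 times their D0 width at W2, and 5 of the 9 lay at *Lgr5*, a receptor for R-spondins that marks stem cells of the follicle. The member over the *Lgr5* start (chr10:115585201-115588200) measured 3000, 3000, 11200, 3400 and 3200 bp. The member over a start of *Lhx2*, which encodes a LIM homeodomain factor of HFSCs (chr2:38336601-38340600), measured 4000, 3400, 18000, 4200 and 3000 bp. A *Tcf7l1* member (chr6:72676601-72680000) measured 3400, 4200, 24600, 3600 and 4200 bp. In these 3 members W2 stood alone, and W6 and W12 were back near D0. Elsewhere the width was kept: a *Runx1* member (chr16:92637601-92642000) measured 4400, 2600, 38200, 32400 and 34800 bp, a *Foxc1* member (chr13:31819201-31821600) 2400, 12400, 13000, 12600 and 13400 bp, and an *Nfib* member (chr4:82379401-82382000) 2600, 1600, 28200, 24000 and 15200 bp. Members over the starts of *Wif1* (3000, 2800, 3800, 3000 and 3000 bp) and *Fgf18* (3600, 2600, 3000, 3200 and 4000 bp) changed little. Widening is a property of the lists the rule used, and the W2 list was wider than the D0 list over members as a whole, so these counts carry no test.

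**Figure D5:**
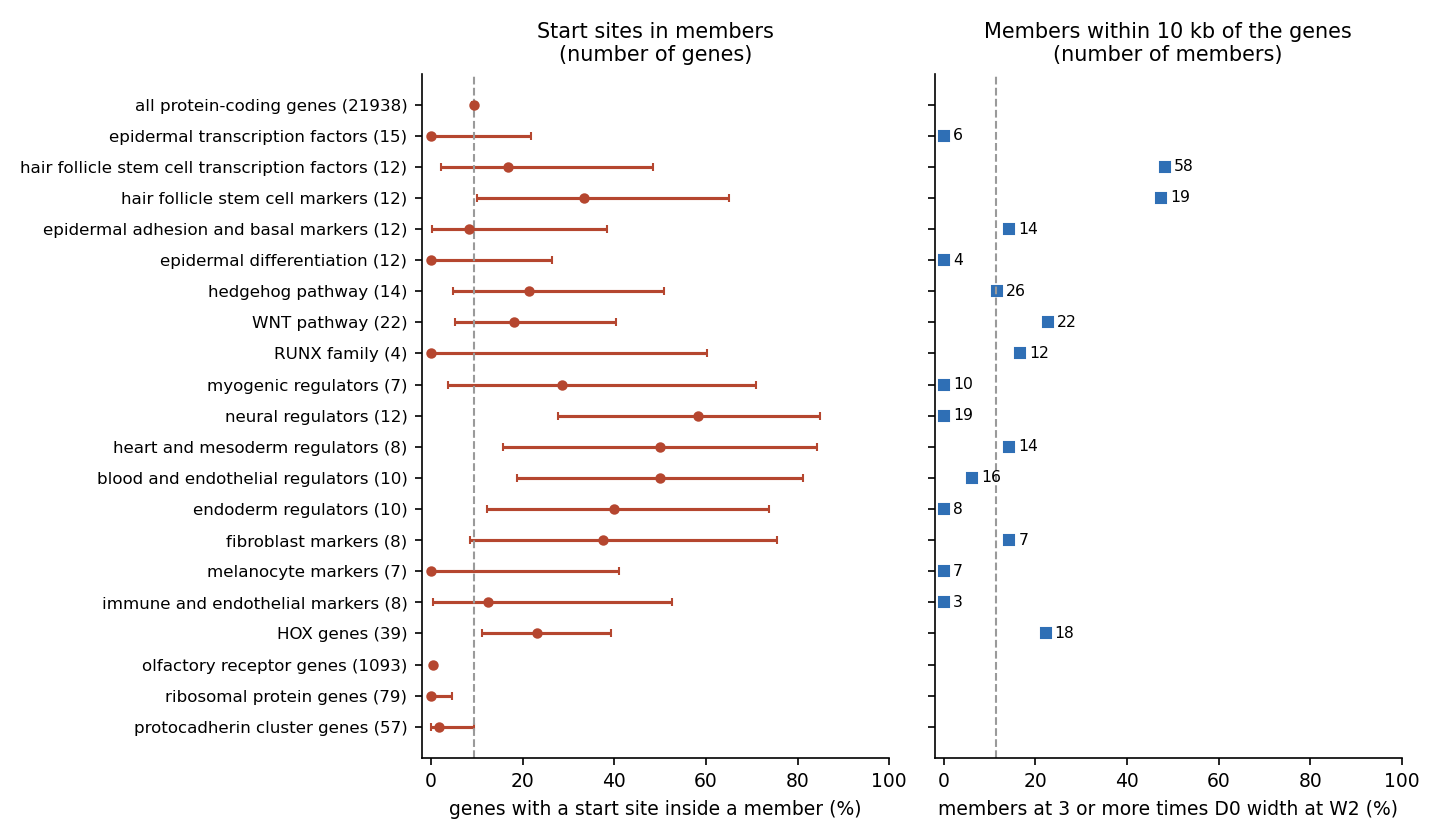
Left, share of genes (%) with a start site inside a member by gene list, with exact 95% intervals and the share of all protein-coding genes as a dashed line at 9.39%. Right, share of members (%) within 10 kb of the genes of each list whose W2 width was 3 or more times the D0 width, with the number of members beside each point and all members as a dashed line at 11.4%; the 2 HFSC lists lie at 48.3 and 47.4%.

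Among signalling genes, hedgehog members lay at 12 of 14 genes (85.7%, 57.2 to 98.2%), beside 38.3% of all protein-coding genes. The median body of the 14 genes was 45.6 kb, and genes of 30 to 100 kb had a member in 49.3% of cases. Starts inside a member included those of *Hhip* and *Ihh*. The *Hhip* member (chr8:80055801-80059000) measured 3200, 2600, 3400, 2000 and 2200 bp, with the nearest H3K27ac peak 108730 bp away. The member over the start of *Ihh*, a hedgehog ligand (chr1:74947601-74952400), narrowed from 4800 bp to 3800, 3400, 3800 and 3000 bp. WNT pathway genes had members at 13 of 22 (59.1%), with an interval of 36.4 to 79.3% that includes the share of all genes, and with the starts of *Lef1*, *Nkd1*, *Rspo1* and *Wnt7b* inside. The *Wnt7b* member (chr15:85582001-85584800) measured 2800, 11400, 1800, 2200 and 19400 bp and lay 495 bp from the nearest H3K27ac peak, while the *Lef1* member (chr3:131109401-131113400) measured 4000, 4600, 4800, 7400 and 3600 bp. RUNX genes had 12 members at 2 of 4 genes and no start inside.

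Lists of epidermal genes had shares with a member near that of all genes or below it. Members lay at 5 of 12 adhesion and basal genes (41.7%), 4 of 12 differentiation genes (33.3%) and 3 of 15 epidermal transcription factors (20%, 4.33 to 48.1%), beside 38.3% of all protein-coding genes, and *Dst* alone had a start inside. *Trp63*, which encodes p63, had 4 members, of which that at chr16:25744401-25749400 measured 5000, 4000, 1600, 3000 and 3800 bp. At W2, 2 of the 14 members at adhesion and basal genes, none of the 6 at epidermal transcription factors and none of the 4 at differentiation genes reached 3 times their D0 width, beside 11.4% of all members.

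Markers of other skin cell types were not free of members. *Pdgfra*, which encodes the CD140a that the sort selected against, had its start in a member (chr5:75148001-75157200) of 9200, 9400, 7600, 6800 and 8200 bp. Starts of *Pdgfrb* and *Twist2* among 8 fibroblast markers, and of *Kdr* among 8 immune and endothelial markers, also lay inside members, and none of 7 melanocyte markers did. The *Pecam1* members were narrow until W2 and wide afterwards, that at chr11:106705801-106707400 with 1600, 1600, 1400, 11800 and 14200 bp, at the same times as H3K27ac appeared near that gene's start. How far other cells contributed to these lists was not tested.

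Enhancers known from embryos overlapped members as well, a comparison chosen after other values had been seen. Of 620 mouse elements of the VISTA collection in the RefSeq annotation, which drive a reporter in embryonic tissues, 83 (13.4%, 10.8 to 16.3%) overlapped a member, 87 a domain acetylated in 1 to 4 lists, 75 one acetylated in all 5 and 67 a never acetylated domain that was not constant. Per 100 Mb of domain these were 158 (126 to 196, exact Poisson interval for counting error) for members, 87.2 (69.8 to 108), 91.0 (71.5 to 114) and 103 (80.0 to 131), beside 22.7 for the genome. Narrow domains meet more elements per base, since an overlap of 1 bp counts. By reporter tissue, members overlapped 36 of 286 elements of brain or neural tube, 29 of 174 of limb and 18 of 159 of heart. Members with such an element, named by the nearest gene at any distance, included those of *Sox2* (chr3:34411201-34413200, forebrain), *Irx3* (chr8:91712201-91716000, limb and heart), *Nkx2-5* (chr17:26848201-26851200, heart) and *Tcf7l1* (chr6:72710601-72712400, limb and branchial arch).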

How the data were processed

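Of 38 samples in 16 groups, the lists of H3K4me1 and H3K27ac in skin and of H3K4me1 in culture were analysed; total H3 and 14 barcode files were not used here. The authors split reads by barcode, trimmed them with Skewer, aligned them to GRCm38/mm10, removed duplicates with Picard, merged replicates and called broad H3K4me1 domains with epic2 and H3K27ac peaks with MACS2. The submitters' processing notes name Bowtie2 2.2.9, SAMtools 1.9, MACS2 2.1.1, SICER 0.0.36 and deepTools 2.5.4. Caller settings and controls are not given in the sources used here. The culture lists have the layout of MACS2 broad peaks, and their caller is unclear.

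The deposited H3K4me1 lists of skin give a p-value per domain, at most 0.0496, with domains in steps of 200 bp. Per interval, the deposited H3K27ac and culture lists hold a score in whole numbers, the fold enrichment, which is a linear ratio, and −log10 values of p and q.

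From these lists, intervals on 21 chromosomes were compared with Python 3.11.15, numpy 2.4.6, pandas 2.3.3, scipy 1.17.1 and pysam 0.24.0, and figures were drawn with matplotlib 3.10.9. Overlap meant at least 1 bp. Width at a time was the sum of all H3K4me1 domains that overlapped a member, so neighbouring members can share 1 later domain. Distances were taken to 77221 start sites of 55413 genes in GENCODE M21. Promoters, VISTA elements and sequences came from RefSeq for GRCm38.p6, whose promoter table matched 136 of 210 list genes, too few for a statement on promoters by list. Other classes were reweighted to the members' 5 width classes or to 5 classes of window GC. Overlap, distance, coverage and motif functions were tested on simulated intervals and sequences, and the summed width was not tested in this way. Shares carry exact 95% Clopper-Pearson intervals, and no p-value was computed, since each condition has 1 pooled list.

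The members and the lists of genes and motifs were chosen with earlier results of these data known. Regions named were the 5 widest at D0, the 5 with the largest and the 5 with the smallest ratio of W2 to D0 width among members of at least 2000 bp, and the 5 with the highest culture score without DOX. Genes named were the 10 with most members, ties included, and those of the lists. Alternatives were other overlaps, distances, strengths, sets of lists, windows, distal limits and flanks. Values of some list genes are not reported here, though their lists' counts include them.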

Additional observations from a re-analysis of the deposited data

How the results depend on the processing

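No paired analysis was possible because the lists pool the replicates, and for the same reason no replicate could be left out. Values follow for the settings that changed most results, in an order that is not a ranking. The first were overlap by 50% of the shorter of 2 intervals and H3K4me1 domains with p below the list median. The others were only H3K27ac peaks above the median score, no W12 lists and no W1 lists. Members numbered 18607, 3135, 28095, 21756 and 21184, against 17484. Their overlap with culture without DOX was 73.9, 85.5, 76.0, 70.04 and 71.8%, against 72.6%, and their difference from constant acetylated domains in that overlap was -15.0, -8.28, -16.5, -18.2 and -17 points, against -15.9. Distal members were 68.9, 67.3, 73.3, 75.2 and 74.7%, against 74.0%, and the difference from acetylated domains was 16.9, 19.3, 37.1, 27.7 and 27 points, against 24.7. Genes with a member were 42.9, 10.8, 50.1, 42.8 and 42.3%, against 38.3%. Members wider at W2 were 53.3, 48.4, 51.1, 52.8 and 54.1%, against 52.1%. The p63 motif was in 1.5% of members with p below the median and in 2.89% of windows of 500 bases, against 1.73%.

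Other settings were as follows. Only culture domains above the median score gave 43.9% of members and a difference of -19.5 points. Requiring 50% of the domain to be covered in culture gave 28.9% and reversed the difference to 6.80 points over domains of all widths, though within each width class members stayed below domains acetylated in 1 to 4 lists. Beside domains acetylated in all 5 lists, members were higher in the width classes up to 2000 bp and lower in wider ones. Without members within 1000 bp of H3K27ac, 75.1% were distal, the difference was 25.9 points, and 36.7% of genes had a member. Distal limits of 1000 and 10000 bp gave 79.1 and 50.6% and, for the second, a difference of 16.5 points. Genes had a member in 37.6% of cases without chromosomes X and Y, 26.4% over the gene body and 62.7% with flanks of 50 kb. The cause of these shifts was not tested. Where a weak H3K27ac peak is missed, a domain counts as a member, and the depth that sets this is unknown.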

Other observations

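Depth limits what the rule can show. A constant domain is listed as never acetylated when no H3K27ac peak passed the authors' threshold in any pooled list, and 7083 constant domains failed the rule through the peaks of 1 list alone. No value in the lists separates a weak mark from a mark in few cells. Without the W12 lists of both marks 4272 more domains met the rule, and without the W1 lists 3700 more did.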
